A study of Arabidopsis thaliana with 27 samples.

Results

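The aquaporins are the water channel family of Arabidopsis. The 35 members were taken by locus from the count table, which holds 32833 genes: 5 PIP1, 8 PIP2, 10 TIP, 9 NIP and 3 SIP genes. Their transcripts were followed in roots, cotyledons and whole seedlings of 3-day-old plants of ecotype Col-O in the labels and Col-0 in the study's methods, with 3 libraries for each organ under 40 µM NAE 18:2, under NAE 18:3 and under 0.2% DMSO, 27 libraries in all. For NAE 18:3 the labels of the samples state 70 µM whereas the text of the series states 80 µM, and the exposure was 1 h in the labels and up to 3 h in the study's methods. All plants were wild type, were grown in shaken liquid medium and were moved to dishes in groups of 50 before treatment, and every group, DMSO included, came from such dishes. The study's methods call the 3 samples of a group biological replicates, and neither they nor the labels say whether these came from separate dishes, so the p-values measure the spread between these libraries.

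Aquaporins are membrane channels that work as tetramers, and each subunit folds 2 short loops carrying an Asn-Pro-Ala box into a pore. PIPs lie mainly in the plasma membrane, where PIP1 proteins commonly reach the surface in a complex with PIP2 proteins, and they carry much of the water that crosses root cells. TIPs lie in the vacuole membrane, NIPs pass small uncharged solutes such as boric acid, glycerol or arsenite, and SIPs are found in the endoplasmic reticulum. N-acylethanolamines (NAEs) are fatty acid amides that act as lipid signals in seeds and seedlings. NAE 18:2 carries linoleic acid and NAE 18:3 carries linolenic acid, which has an additional double bond. Because the doses also differed, compound and dose cannot be told apart in any comparison of the NAEs.

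By locus, the PIP1 genes are PIP1;1 (AT3G61430), PIP1;2 (AT2G45960), PIP1;3 (AT1G01620), PIP1;4 (AT4G00430) and PIP1;5 (AT4G23400). The PIP2 genes are PIP2;1 (AT3G53420), PIP2;2 (AT2G37170), PIP2;3 (AT2G37180), PIP2;4 (AT5G60660), PIP2;5 (AT3G54820), PIP2;6 (AT2G39010), PIP2;7 (AT4G35100) and PIP2;8 (AT2G16850). The TIP genes are TIP1;1 (AT2G36830), TIP1;2 (AT3G26520), TIP1;3 (AT4G01470), TIP2;1 (AT3G16240), TIP2;2 (AT4G17340), TIP2;3 (AT5G47450), TIP3;1 (AT1G73190), TIP3;2 (AT1G17810), TIP4;1 (AT2G25810) and TIP5;1 (AT3G47440). The NIP genes are NIP1;1 (AT4G19030), NIP1;2 (AT4G18910), NIP2;1 (AT2G34390), NIP3;1 (AT1G31885), NIP4;1 (AT5G37810), NIP4;2 (AT5G37820), NIP5;1 (AT4G10380), NIP6;1 (AT1G80760) and NIP7;1 (AT3G06100), and the SIP genes are SIP1;1 (AT3G04090), SIP1;2 (AT5G18290) and SIP2;1 (AT3G56950). In the results that follow, a hyphen takes the place of the semicolon in these names, as protein databases write them (PIP1-1 for PIP1;1).

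The second Asn-Pro-Ala box is shown for 5 members lowered by NAE 18:3 in roots and for 2 NIPs whose box differs. Each line gives 45 bases of coding sequence within 1 exon, in TAIR10.1 coordinates, with the codons of the box in capitals. PIP1-1 lies at chr3:22734843-22734887 on the plus strand, PIP2-2 at chr2:15613878-15613922 on the minus strand, PIP2-3 at chr2:15618648-15618692 on the plus strand and TIP2-2 at chr4:9700068-9700112 on the plus strand. TIP1-2 lies at chr3:9722908-9722952 on the minus strand, NIP1-2 at chr4:10367964-10368008 on the plus strand and NIP6-1 at chr1:30350784-30350828 on the minus strand.
PIP1-1: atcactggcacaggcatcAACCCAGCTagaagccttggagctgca
PIP2-2: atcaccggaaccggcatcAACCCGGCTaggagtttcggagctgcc
PIP2-3: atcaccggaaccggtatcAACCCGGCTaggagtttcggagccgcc
TIP2-2: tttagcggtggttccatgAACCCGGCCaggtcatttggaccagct
TIP1-2: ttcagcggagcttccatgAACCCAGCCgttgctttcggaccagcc
NIP1-2: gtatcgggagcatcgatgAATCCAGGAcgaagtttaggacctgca
NIP6-1: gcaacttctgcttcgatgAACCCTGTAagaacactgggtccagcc
The box reads Asn-Pro-Ala in the PIPs and TIPs shown, Asn-Pro-Gly in NIP1-2 and Asn-Pro-Val in NIP6-1. PIP2-2 and PIP2-3 are neighbours separated by 2612 bases, and their windows differed at 2 of 45 bases. They were the closest pair of the family, with transcripts 90.7% identical over 988 bases. No pair within the family reached 95% identity, and with the counts of PIP2-2 and PIP2-3 summed the pair was still called lower in both NAE-treated root groups. Outside the family, 489 bases of NIP2-1 were 97.5% identical to AT2G29870 and 375 bases of NIP3-1 were 95.5% identical to AT2G21020, so reads from those stretches could be split and the counts of both NIPs are uncertain there.

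Total counts per library ranged between 17781269 and 38635934, with a median of 26436942. CPM below are counts scaled to library size. Summed CPM of 5 leaf photosynthesis genes were between 13.5 and 41.7 in 8 of the 9 root libraries, 449 in NAE 18:3 roots replicate 3, and at least 31820 in every cotyledon library. Summed CPM of 6 root genes were between 10.07 and 20.1 in cotyledons. In roots that sum was 196 to 295 CPM after NAE 18:2, 70.0 to 73.8 CPM after NAE 18:3 and 468 to 766 CPM after DMSO. The list did not move as one. After NAE 18:3, all 3 root libraries lay below all DMSO root libraries for 5 of the 6 genes, whereas SHR, a transcription factor of the root ground tissue, was 48.3 ± 7.04 CPM after NAE 18:3 and 38.5 ± 3.82 CPM after DMSO, with overlap. After NAE 18:2 the libraries lay apart for 3 of the 6, and CASP1, a protein of the endodermal barrier, was 100.3 ± 19.2 CPM after NAE 18:2 and 134 ± 71.0 CPM after DMSO, with overlap. The phosphate transporter PHT1;1 made up much of the sum in DMSO roots, at 388 ± 116 CPM, and was 91.8 ± 19.8 CPM after NAE 18:2 and 19.0 ± 3.70 CPM after NAE 18:3. The part of these transcripts in the aquaporin results was not tested. Fewer cells of a type and less RNA per cell cannot be told apart in bulk organs.

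In DMSO-treated organs, levels per kb of exon (RPKM) spread over a wide range, with 26 members over 1 RPKM in roots and 23 in cotyledons. TIP1-1, a vacuole water channel of expanding cells, was the highest in roots at 817 ± 192 RPKM (SD, n = 3). PIP1-2 followed at 699 ± 100 RPKM, PIP1-1 at 644 ± 108 RPKM, PIP2-1 at 578 ± 136 RPKM and TIP1-2 at 575 ± 87.2 RPKM. These neighbours in the order lay within their SDs of each other. Cotyledons were led by TIP1-2 at 1575 ± 128 RPKM, well clear of PIP2-7 at 454 ± 65.5 RPKM, PIP1-2 at 425 ± 60.5 RPKM and TIP1-1 at 403 ± 177 RPKM, which again did not separate beyond their SDs. The 5 highest members held 64.5% of the family's summed RPKM in roots and 75.4% in cotyledons. TIPs held 37.2% in roots and 53.5% in cotyledons, whereas NIPs held 2.34% in roots and 0.856% in cotyledons.

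**Figure D1:**
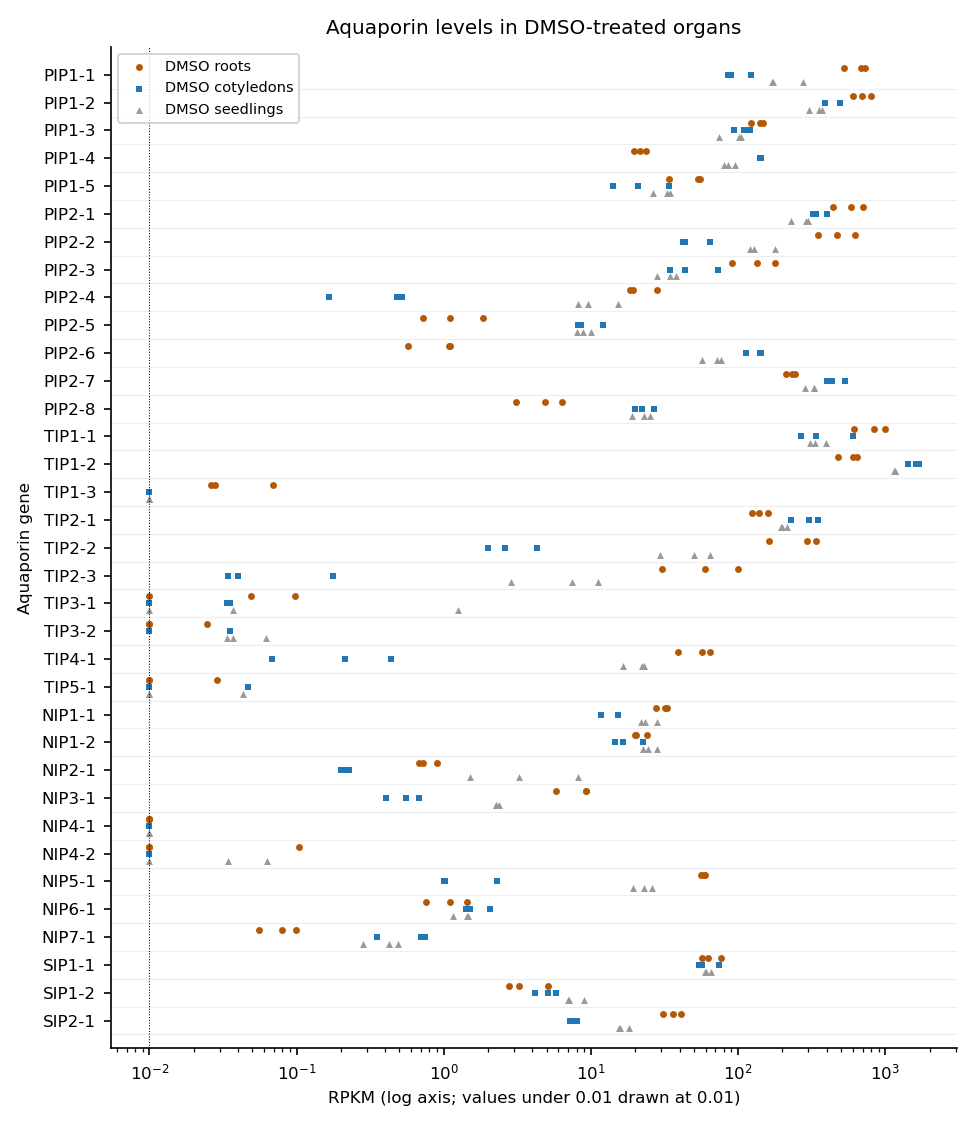
RPKM of each of the 35 aquaporin genes in DMSO-treated roots, cotyledons and seedlings, on a log axis, with a point for each library and values under 0.01 RPKM drawn at 0.01. By the mean of 3 libraries TIP1-1 is highest in roots at 817 RPKM and TIP1-2 in cotyledons at 1575 RPKM.

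Most members differed between the DMSO-treated organs. Of 30 members tested, 14 were higher in roots than in cotyledons and 7 were lower, where 20.0% of all genes tested were called higher and 22.4% lower. Members were called where edgeR's quasi-likelihood test gave p below 0.01, after Benjamini-Hochberg adjustment across every gene tested, and the log2 fold change exceeded 1 in size. The median log2 difference was 0.78 over the members and 0.01 over all genes tested. Among tonoplast channels, TIP2-2 averaged 357 ± 125 CPM in roots and 4.02 ± 1.59 CPM in cotyledons (SD, n = 3 each; log2 fold change 6.47 ± 0.49 SE, adjusted p = 1.439e-10). TIP4-1, a root vacuole channel, averaged 62.57 ± 14.96 CPM in roots and 0.281 ± 0.218 CPM in cotyledons (log2 fold change 7.82 ± 1.29, adjusted p = 1.576e-05). TIP2-3, which also passes ammonia, had 2436, 1172 and 3029 counts in roots against 1, 1 and 5 counts in cotyledons, so its fitted fold change rests on very few cotyledon reads.

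Other members of the root side were NIP5-1, the boric acid uptake channel, with 126 ± 4.71 CPM in roots and 3.12 ± 1.60 CPM in cotyledons (log2 fold change 5.33 ± 0.51, adjusted p = 7.083e-09), and PIP2-4 with 31.7 ± 7.58 and 0.563 ± 0.281 CPM in roots and cotyledons (5.82 ± 0.63, adjusted p = 4.392e-08). PIP1-1, PIP2-2, NIP1-1, NIP3-1 and SIP2-1 were also higher in roots. The widest difference in the other direction was PIP2-6, at 1.99 ± 0.660 CPM in roots and 284 ± 35.4 CPM in cotyledons (log2 fold change -7.14 ± 0.35, adjusted p = 1.269e-13). PIP1-4, PIP2-5, PIP2-8, TIP1-2, TIP2-1 and NIP7-1 were lower in roots too. PIP1-5 was called higher in roots although its libraries overlapped. SIP1-1, an endoplasmic reticulum channel, was nearly level, with 84.3 ± 12.9 CPM in roots and 79.7 ± 14.1 CPM in cotyledons (log2 fold change 0.08 ± 0.12, adjusted p = 0.563).

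Some of these organ calls lay close to the threshold. The NIP2-1 call was lost without any 1 of the 6 DMSO libraries (adjusted p 0.0138 to 0.0293) and with no filter on low counts. PIP1-5 lost its call without DMSO cotyledons replicate 2 or 3 or DMSO roots replicate 1 or 3 (log2 fold change 0.79 to 1.43 over the libraries left out), and TIP1-1 without DMSO cotyledons replicate 1 or 2 or DMSO roots replicate 1 or 3 (0.79 to 1.43). PIP2-3 was lost without DMSO cotyledons replicate 1 (largest adjusted p = 0.0105), and TIP2-1 without DMSO cotyledons replicate 1 or DMSO roots replicate 3 (smallest size -0.92). TIP2-1 and TIP1-2 also lost their calls when libraries were scaled by their totals only, which moved the median of all genes to 0.58.

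Treated roots held far fewer aquaporin transcripts than DMSO roots. The family made up 0.356 ± 0.0720% of all counts in NAE 18:2-treated roots, 0.228 ± 0.0283% in NAE 18:3-treated roots and 0.965 ± 0.159% in DMSO roots (SD, n = 3 each). Its summed level was 2371 to 3475 CPM after NAE 18:2, 1744 to 2153 CPM after NAE 18:3 and 5957 to 8409 CPM after DMSO, so neither treated group overlapped DMSO. NAE 18:3 lowered 20 of the 28 members tested and raised 0, where 16.8% of all genes tested were called lower and 5.94% higher. At an unadjusted p under 0.05, 1 member was higher, and DESeq2 also raised 0. The median log2 fold change was -2.32 over the members and 0.00 over all genes tested. NAE 18:2 lowered 10 of 28 and raised 1, where 3.03% of all genes were called lower and 5.68% higher, with a median of -0.72 over the members and -0.02 over all genes. Both NAEs were set against the same 3 DMSO libraries.

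**Figure D2:**
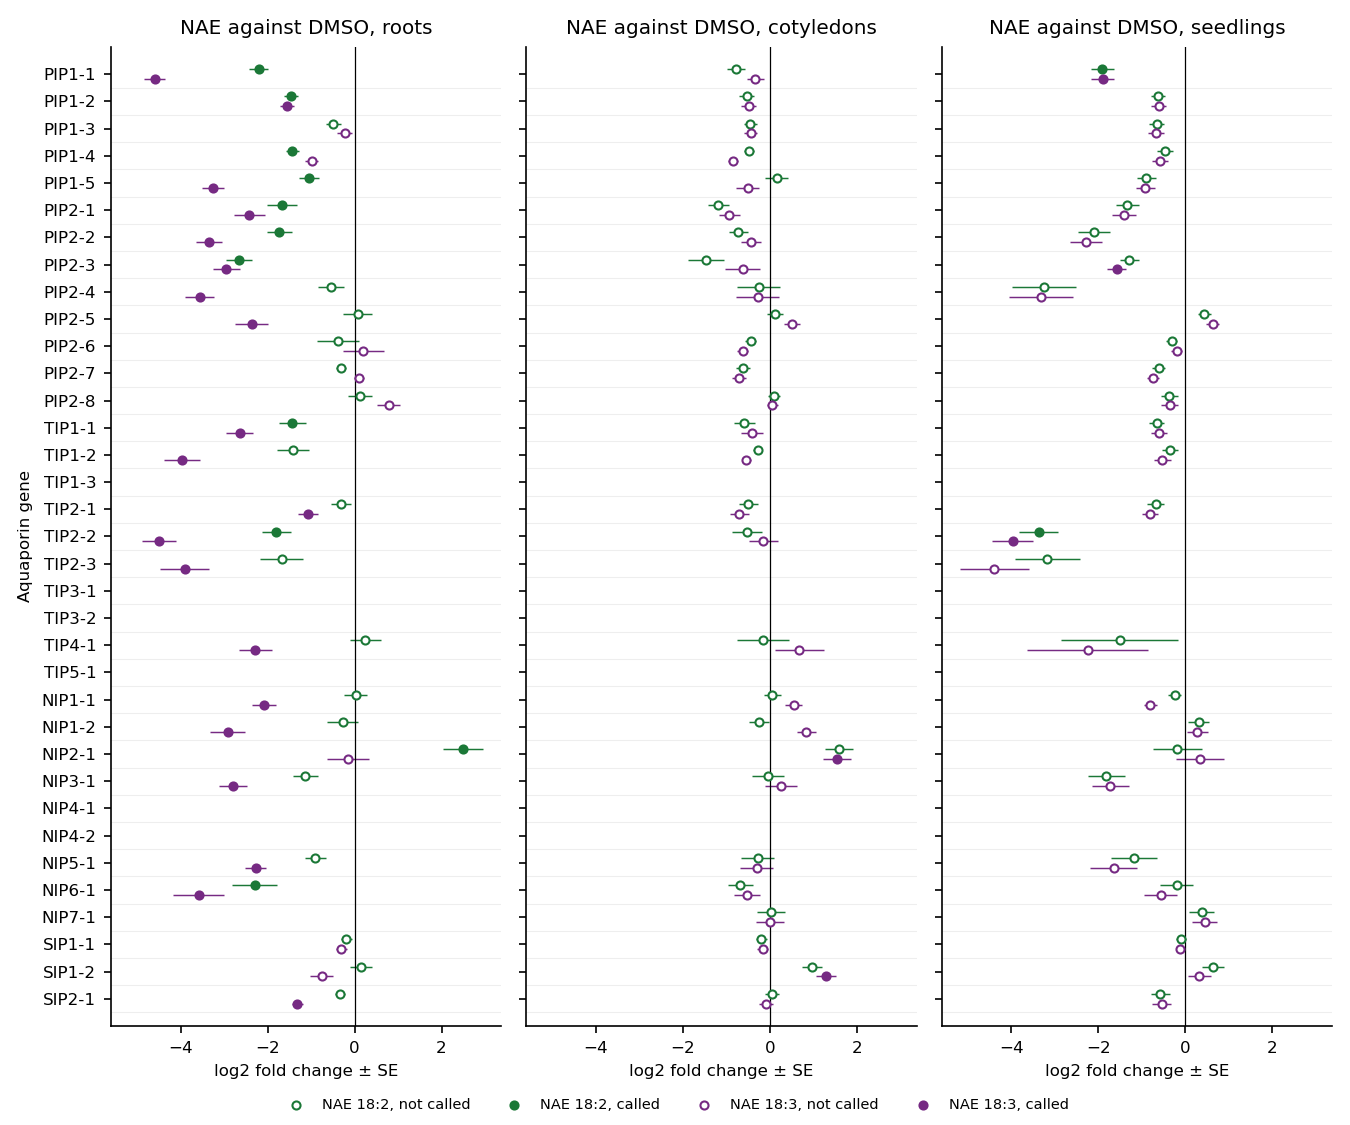
Log2 fold change of each tested aquaporin gene (± SE) after NAE 18:2 and NAE 18:3 against DMSO in roots, cotyledons and seedlings, with filled points for called genes. In roots NAE 18:3 lowered 20 of 28 members and NAE 18:2 lowered 10, against 0 lowered by either NAE in cotyledons.

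By subfamily, NAE 18:3 lowered 3 of 5 PIP1, 5 of 8 PIP2, 6 of 6 tested TIP, 5 of 6 tested NIP and 1 of 3 SIP genes in roots. NAE 18:2 lowered 4 of 5 PIP1, 3 of 8 PIP2, 2 of 6 tested TIP, 1 of 6 tested NIP and 0 of 3 SIP genes. TIPs held 21.8 ± 3.67% of the family's RPKM in NAE 18:3-treated roots, 38.2 ± 3.37% in NAE 18:2-treated roots and 37.1 ± 1.25% in DMSO roots. PIP2 genes held 36.3 ± 0.175%, 27.1 ± 1.06% and 28.1 ± 1.13% of it in the same order.

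PIP1-1, a plasma membrane channel, and TIP2-2, described below, had the largest falls under NAE 18:3 and lay within their SEs of each other. It had 202, 246 and 222 CPM in NAE 18:2-treated roots, 33.5, 54.5 and 52.1 CPM in NAE 18:3-treated roots and 1129, 812 and 1065 CPM in DMSO roots. All treated libraries lay below all DMSO libraries, and all NAE 18:3 libraries below all NAE 18:2 libraries. The log2 fold change was -2.20 ± 0.22 for NAE 18:2 (SE, adjusted p = 0.000265) and -4.60 ± 0.24 for NAE 18:3 (adjusted p = 6.13e-06). PIP1-5, a less abundant relative, had 22.8, 31.1 and 39.3 CPM after NAE 18:2, 7.93, 7.10 and 7.36 CPM after NAE 18:3 and 71.1, 44.7 and 72.6 CPM after DMSO. The 3 groups of PIP1-5 did not overlap, and the log2 fold change was -1.05 ± 0.23 for NAE 18:2 (adjusted p = 0.00935) and -3.25 ± 0.25 for NAE 18:3 (adjusted p = 3.016e-05). PIP1-2 fell by similar amounts under both NAEs, by 1.45 and 1.55 on the log2 scale, and PIP1-4, which also passes CO2, fell by 1.43 under NAE 18:2. Under NAE 18:3 PIP1-4 missed the fold minimum, at -0.98 ± 0.15.

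The promoter of PIP1-1 is given with those of PIP2-5 and NIP2-1 because PIP1-1 had one of the largest falls under NAE 18:3, NIP2-1 rose under NAE 18:2 and PIP2-5 held the rarest of the motifs searched. Each line holds the 250 bases before the annotated gene start in TAIR10.1, with matches on either strand to TTGAC (the core of the W box bound by WRKY factors) or GCCGAC (the core of the drought response element) in capitals. PIP1-1 lies at chr3:22732993-22733242 on the plus strand, PIP2-5 at chr3:20301509-20301758 on the plus strand and NIP2-1 at chr2:14515989-14516238 on the minus strand.
PIP1-1: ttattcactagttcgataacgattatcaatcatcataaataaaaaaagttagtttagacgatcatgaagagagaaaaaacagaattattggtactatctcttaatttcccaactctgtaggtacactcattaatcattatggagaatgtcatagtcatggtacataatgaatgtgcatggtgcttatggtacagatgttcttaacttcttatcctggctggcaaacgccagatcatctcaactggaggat
PIP2-5: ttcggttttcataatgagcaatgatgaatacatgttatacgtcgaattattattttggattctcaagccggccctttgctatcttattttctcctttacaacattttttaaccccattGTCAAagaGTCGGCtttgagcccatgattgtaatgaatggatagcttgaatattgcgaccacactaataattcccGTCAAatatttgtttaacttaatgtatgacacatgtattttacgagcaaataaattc
NIP2-1: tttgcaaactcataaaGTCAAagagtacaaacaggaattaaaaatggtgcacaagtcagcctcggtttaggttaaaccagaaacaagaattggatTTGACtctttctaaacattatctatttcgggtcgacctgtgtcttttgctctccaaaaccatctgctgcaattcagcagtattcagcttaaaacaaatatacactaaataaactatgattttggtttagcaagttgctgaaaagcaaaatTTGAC
TTGAC was found 3 times before NIP2-1, 2 times before PIP2-5 and not in the window of PIP1-1. Over the family 19 of 35 windows held it (54.3%), against 44.9% of the 27443 windows of nuclear protein-coding genes. It was found for 8 of the 20 members lowered by NAE 18:3 in roots and for 5 of the 8 tested members that were not called, and for 6 of the 7 not tested. ACGTG (the core of the abscisic acid response element) was found in 4 of 35 windows (11.4%, against 22.9% of all), and GCCGAC in 1 (2.9%, against 2.6%). No matches overlapped in the windows shown. A match is a description of the letters only.

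Among PIP2 channels, PIP2-2, which contributes to root water transport, had 143, 235 and 221 CPM in NAE 18:2-treated roots, 55.1, 84.0 and 74.4 CPM in NAE 18:3-treated roots and 634, 470 and 834 CPM in DMSO roots. Its 3 groups did not overlap, and the log2 fold changes were -1.73 ± 0.28 for NAE 18:2 (adjusted p = 0.00252) and, for NAE 18:3, -3.35 ± 0.30 (adjusted p = 4.825e-05). PIP2-3, its neighbour, known as a desiccation-responsive gene, had 19.5, 29.8 and 31.0 CPM after NAE 18:2, 18.3, 28.9 and 24.7 CPM after NAE 18:3 and 164, 111 and 215 CPM after DMSO. The NAE groups of PIP2-3 overlapped each other and lay below DMSO, by -2.65 ± 0.30 on the log2 scale for NAE 18:2 (adjusted p = 0.00054) and, for NAE 18:3, -2.94 ± 0.30 (adjusted p = 9.272e-05).

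PIP2-4, a root channel, had 13.8, 32.0 and 21.1 CPM in NAE 18:2-treated roots, 2.81, 2.97 and 3.36 CPM in NAE 18:3-treated roots and 40.4, 26.6 and 28.1 CPM in DMSO roots. NAE 18:2 libraries overlapped DMSO (log2 fold change -0.54 ± 0.29, adjusted p = 0.181), whereas NAE 18:3 libraries lay below both (-3.56 ± 0.33, adjusted p = 6.379e-05). PIP2-5, a low-abundance PIP2 in roots, had 2.12, 2.33 and 2.72 CPM after NAE 18:2, 0.374, 0.566 and 0.494 CPM after NAE 18:3 and 1.98, 3.33 and 1.30 CPM after DMSO. It fell under NAE 18:3 (log2 fold change -2.37 ± 0.38, adjusted p = 0.000784), and the NAE 18:2 and DMSO libraries overlapped. PIP2-1, a major root channel, fell by 1.67 under NAE 18:2 and by 2.42 under NAE 18:3 on the log2 scale.

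Of the remaining PIPs, PIP1-3, PIP2-6, PIP2-7 and PIP2-8 were called under neither NAE in roots. PIP2-7, among the abundant members, had a log2 fold change of -0.31 ± 0.12 under NAE 18:2 (adjusted p = 0.065) and 0.10 ± 0.12 under NAE 18:3 (adjusted p = 0.481). PIP2-8 stood at 0.78 ± 0.27 under NAE 18:3 (adjusted p = 0.0343).

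**Figure D3:**
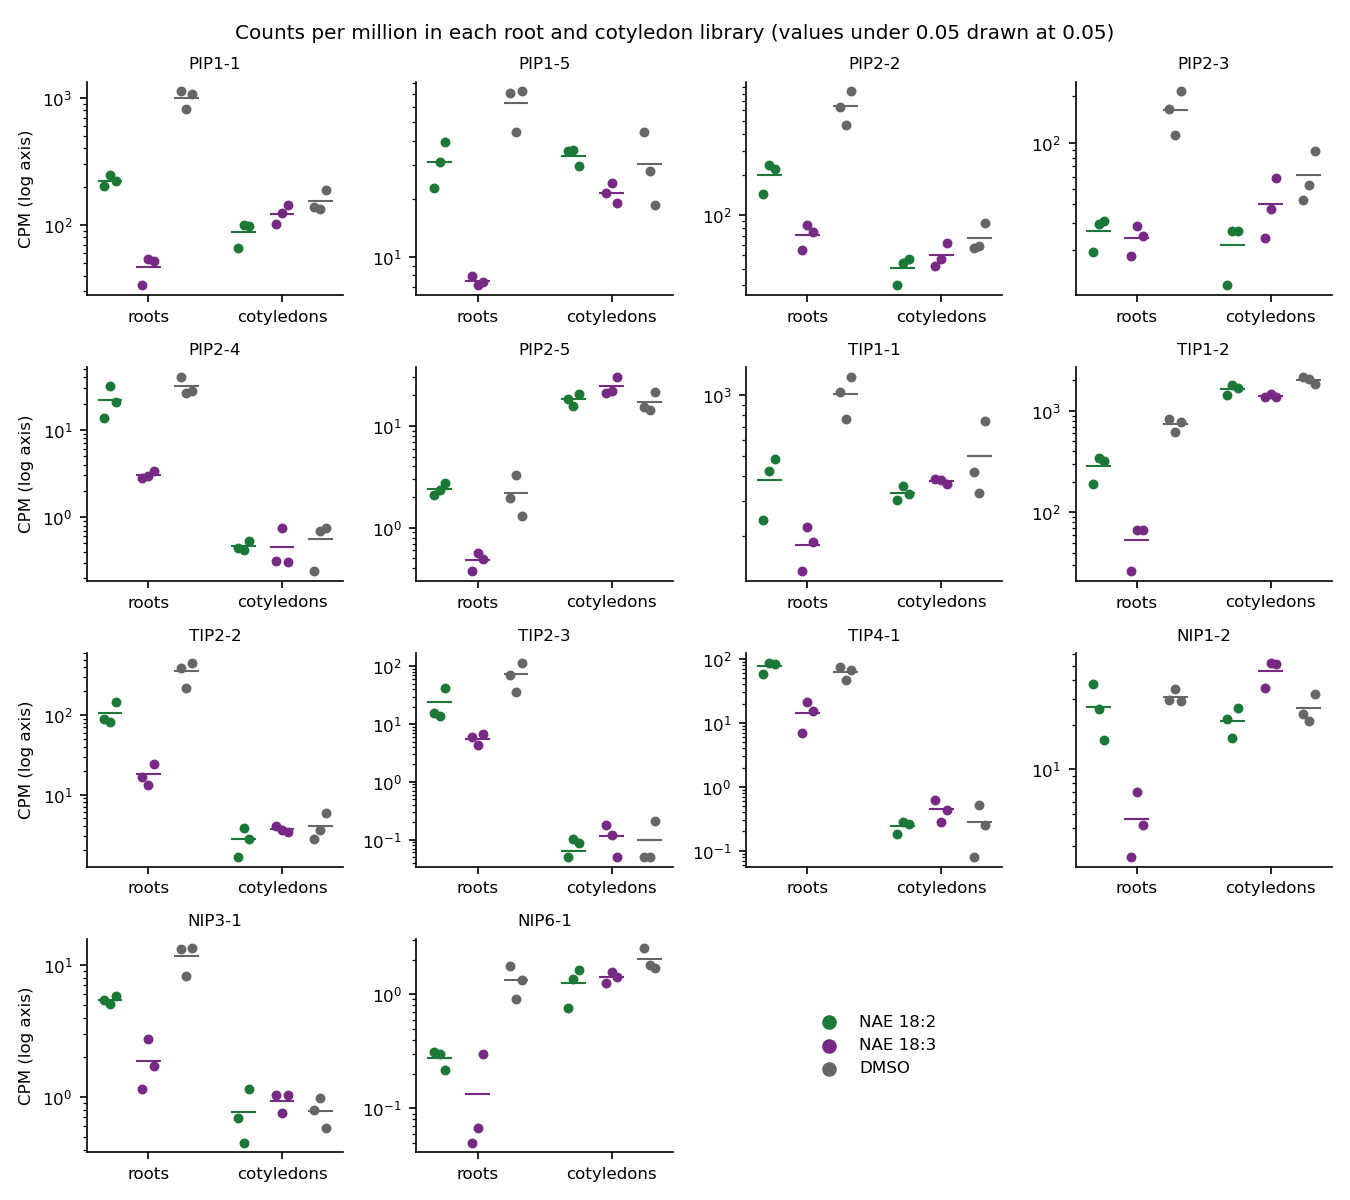
CPM on a log axis in every root and cotyledon library for 14 members, with NAE 18:2, NAE 18:3 and DMSO libraries from left to right in each organ, a line at each group's mean and values under 0.05 CPM drawn at 0.05. The 14 had the largest log2 values against DMSO in roots or cotyledons or in an interaction, and differences between DMSO organs were not used to choose them. PIP1-1 shows 33.5 to 54.5 CPM in NAE 18:3-treated roots and 812 to 1129 CPM in DMSO roots.

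Vacuole channels fell strongly in NAE 18:3-treated roots. TIP2-2, a root TIP, had 90.6, 81.3 and 146 CPM after NAE 18:2, 16.5, 13.1 and 24.4 CPM after NAE 18:3 and 395, 218 and 458 CPM after DMSO. Its groups did not overlap, and the log2 fold changes were -1.79 ± 0.34 for NAE 18:2 (adjusted p = 0.00507) and, for NAE 18:3, -4.49 ± 0.38 (adjusted p = 4.268e-05). TIP1-2 had 190, 344 and 323 CPM after NAE 18:2, 26.2, 66.9 and 67.6 CPM after NAE 18:3 and 828, 615 and 784 CPM after DMSO. The TIP1-2 groups did not overlap either, and the log2 fold change of -3.96 ± 0.41 under NAE 18:3 passed the test (adjusted p = 9.43e-05), while NAE 18:2 was not called by edgeR (-1.41 ± 0.37, adjusted p = 0.0191). TIP1-1, the highest member of DMSO roots, had 242, 422 and 485 CPM after NAE 18:2, 135, 224 and 188 CPM after NAE 18:3 and 1039, 761 and 1232 CPM after DMSO. All of its treated libraries were below all DMSO libraries, by -1.43 ± 0.31 on the log2 scale for NAE 18:2 (adjusted p = 0.00856) and, for NAE 18:3, -2.64 ± 0.32 (adjusted p = 0.000206).

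The ammonia-permeable TIP2-3 had 15.74, 13.95 and 41.63 CPM in NAE 18:2-treated roots, 5.91, 4.30 and 6.62 CPM in NAE 18:3-treated roots and 70.0, 35.8 and 116 CPM in DMSO roots. NAE 18:2 and DMSO libraries overlapped, and the NAE 18:3 libraries were the lowest (log2 fold change -3.90 ± 0.56, adjusted p = 0.000477). TIP4-1 had 58.8, 87.0 and 82.1 CPM after NAE 18:2, 7.03, 21.3 and 15.2 CPM after NAE 18:3 and 75.4, 46.1 and 66.3 CPM after DMSO. It fell under NAE 18:3 (-2.28 ± 0.38, adjusted p = 0.00107), while its NAE 18:2 and DMSO libraries overlapped. TIP2-1, whose exons overlap genes on the opposite strand over 13.96% of their length, fell by 1.07 on the log2 scale under NAE 18:3, a call lost without DMSO roots replicate 1 or 2 or NAE 18:3 roots replicate 1 (log2 fold changes between -1.19 and -0.84 over the libraries left out).

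Among the NIPs, NIP1-2, a transporter of aluminium malate, had 37.9, 25.5 and 15.7 CPM in NAE 18:2-treated roots, 2.54, 6.96 and 4.20 CPM in NAE 18:3-treated roots and 29.3, 34.8 and 28.8 CPM in DMSO roots. NAE 18:2 overlapped DMSO (log2 fold change -0.27 ± 0.36, adjusted p = 0.587), and NAE 18:3 lay below both (-2.92 ± 0.40, adjusted p = 0.000393). NIP3-1, a boron and arsenite channel, had 5.41, 5.10 and 5.84 CPM after NAE 18:2, 1.16, 2.73 and 1.73 CPM after NAE 18:3 and 13.3, 8.27 and 13.4 CPM after DMSO. Its groups did not overlap, and NAE 18:3 was called (-2.79 ± 0.31, adjusted p = 0.000126). NIP6-1, a boric acid channel, was rare, with 9, 8 and 6 counts after NAE 18:2, 1, 2 and 6 counts after NAE 18:3 and 61, 30 and 35 counts after DMSO. The treated libraries of NIP6-1 lay below DMSO, and the log2 fold changes were -2.30 ± 0.52 for NAE 18:2 (adjusted p = 0.00997) and, for NAE 18:3, -3.58 ± 0.59 (adjusted p = 0.000877).

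The boric acid channel NIP5-1 was 20.1 to 38.7 CPM after NAE 18:3 and 121 to 130.0 CPM after DMSO, and fell by 2.27 on the log2 scale. NIP1-1, which passes arsenite and antimonite, fell by 2.09, and SIP2-1 fell by 1.31. NIP2-1, a lactic acid channel of oxygen-starved roots, was the exception in the family, with 3.95, 10.4 and 4.30 CPM in NAE 18:2-treated roots, 0.972, 1.60 and 0.642 CPM in NAE 18:3-treated roots and 1.26, 1.01 and 0.956 CPM in DMSO roots. All NAE 18:2 libraries were above all others, with a log2 fold change of 2.50 ± 0.46 (adjusted p = 0.00447), while NAE 18:3 and DMSO overlapped. Opposite-strand genes overlap 61.9% of the NIP2-1 exon length, and whether the counting used the strand is not given in the sources used here, so reads of NIP2-1 and of its partners cannot be told apart. The call was lost without any 1 of the DMSO root replicates 1, 2 and 3 (largest adjusted p = 0.0232).

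The NAE 18:2 count in roots depended on the tool and on single libraries. DESeq2 called 13 members lower, with TIP1-2, TIP2-3 and NIP3-1 beside the 10 of edgeR, where it called 921 of all 25952 genes lower. With any 1 of the 6 libraries left out, edgeR called 5 to 7 members lower, against 10 with all of them. Over all genes, 610 of 20138 were called lower with all libraries. The fit without NAE 18:2 roots replicate 2 called 801 lower, and each other fit called 262 to 340, of at least 20321 genes tested. Fewer calls in most of these fits were thus not particular to the family. The calls of NIP6-1, PIP2-1 and TIP1-1 were lost without each of the 6 libraries (largest adjusted p 0.0462, 0.0331 and 0.0330), that of PIP1-5 without each library except DMSO roots replicate 2 (0.0364), that of TIP2-2 without replicate 1 or 3 of DMSO roots or replicate 1 or 2 of NAE 18:2 roots (0.0261) and that of PIP2-2 without NAE 18:2 roots replicate 3 (0.0111). The NAE 18:3 count was 19 to 21, and without NAE 18:3 roots replicate 3, the root library with the most leaf transcripts, 0 of its 20 calls were lost.

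In cotyledons few members were called. NAE 18:2 changed 0 of 28 members by edgeR's quasi-likelihood test, where 0.617% of all genes tested were called higher and 0.108% lower. At an unadjusted p under 0.05, 2 members were higher and 12 lower, where 4966 of all 19444 genes tested passed in either direction. DESeq2 called PIP2-1 and PIP2-3 lower, where it called 125 of all 25581 genes lower. A fit with the replicate number as a block, which pairs these libraries, called PIP2-3 lower. The edgeR log2 fold change was -1.18 ± 0.24 for PIP2-1 (adjusted p = 0.0236) and -1.48 ± 0.41 for PIP2-3 (adjusted p = 0.0629), and all 3 treated libraries lay below DMSO for both. NAE 18:3 raised 2 of 28 members and lowered 0, where 6.33% of all genes tested were called higher and 2.49% lower. At an unadjusted p under 0.05, 5 members were higher and 8 lower, where 7860 of all 19444 genes tested passed in either direction. DESeq2 called 0 members lower. The median log2 fold change was -0.28 over the members after NAE 18:2 and -0.32 after NAE 18:3, beside -0.01 and -0.02 over all genes.

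The members raised by NAE 18:3 in cotyledons were SIP1-2 and NIP2-1. SIP1-2, an endoplasmic reticulum channel, was 12.2 to 22.3 CPM after NAE 18:3 and 5.392 to 7.501 CPM after DMSO (log2 fold change 1.29 ± 0.22, adjusted p = 0.00235), a call lost without DMSO cotyledons replicate 1 or 2 or NAE 18:3 cotyledons replicate 1 (largest adjusted p = 0.012). NIP2-1 was 0.715 to 1.17 CPM after NAE 18:3 and 0.280 to 0.320 CPM after DMSO (1.53 ± 0.32, adjusted p = 0.00575), a call lost without any 1 of the 6 libraries (largest adjusted p = 0.0245). After NAE 18:2, SIP1-2 was 11.88 to 13.24 CPM and NIP2-1 was 0.763 to 1.019 CPM in cotyledons. These libraries also lay above all DMSO cotyledons, though neither member was called, so the rises are not particular to NAE 18:3. In NAE 18:3-treated cotyledons 19 of 28 members had a negative log2 fold change, and 4 of them, PIP1-4, PIP2-6, PIP2-7 and TIP1-2, had an adjusted p under 0.01 but missed the fold minimum. PIP1-4 was 159 ± 17.9 CPM after NAE 18:3 and 284 ± 1.43 CPM after DMSO (-0.85 ± 0.11, adjusted p = 0.000488). PIP2-1 had a larger difference that missed both limits, at 291 ± 33.6 CPM after NAE 18:3 and 555 ± 63.2 CPM after DMSO (-0.94 ± 0.24, adjusted p = 0.0168). The family was 0.353 ± 0.0134% of counts in NAE 18:3-treated cotyledons, 0.398 ± 0.0543% in NAE 18:2-treated cotyledons and 0.540 ± 0.0240% in DMSO cotyledons.

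Whether an NAE acted on a member differently in roots and cotyledons was tested as an interaction, with all 27 libraries in 1 fit. For NAE 18:3, 15 of 30 members had a lower effect in roots than in cotyledons and 0 a higher one, where 9.86% of all genes tested were called lower and 5.56% higher. At an unadjusted p under 0.05, 3 members were higher, and DESeq2 called 0 higher. The median difference was -2.20 over the members and 0.13 over all genes. TIP2-2 (-4.17 ± 0.59 on the log2 scale, adjusted p = 1.886e-05) and PIP1-1 (-4.10 ± 0.35, adjusted p = 6.118e-08) differed furthest. NIP1-2 followed (-3.60 ± 0.46, adjusted p = 6.539e-06), with 35.2, 52.5 and 51.3 CPM in NAE 18:3-treated cotyledons against 23.8, 21.1 and 32.5 CPM in DMSO cotyledons, where the treated libraries were the higher. TIP1-2 differed by -3.26 ± 0.38 (adjusted p = 2.085e-06), and the call of PIP2-4 (-3.12 ± 0.91, adjusted p = 0.0095) was lost without any 1 of the 12 libraries of that contrast (largest adjusted p = 0.0766).

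TIP2-2 had 3.98, 3.58 and 3.33 CPM in NAE 18:3-treated cotyledons and 2.72, 3.55 and 5.79 CPM in DMSO cotyledons, which overlapped. PIP1-1 had 101, 125 and 144 CPM in NAE 18:3-treated cotyledons and 139, 133 and 190 CPM in DMSO cotyledons, which overlapped too. TIP1-2 had 1366, 1467 and 1373 CPM against 2167, 2081 and 1848 CPM in the same groups, without overlap. PIP2-7, by contrast, had a positive difference of 0.97 ± 0.21 (adjusted p = 0.00099) that missed the fold minimum.

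For NAE 18:2, 0 of 30 members passed, where 1.92% of all genes tested were called higher and 1.01% lower. At an unadjusted p under 0.05, 9 members were lower and 0 higher, where 6343 of all 21643 genes tested passed in either direction. PIP1-1 lay close to the threshold of a call (-1.37 ± 0.34, adjusted p = 0.0114). DESeq2 called PIP1-1 lower (adjusted p = 0.00116), as did the edgeR fit with the replicate number as a block (-1.37 ± 0.31, adjusted p = 0.00973), which pairs the cotyledon libraries. Over the alternatives its adjusted p was 0.00116 to 0.0380. For the other members, more calls in roots than in cotyledons after NAE 18:2 do not show a difference between the organs.

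**Figure D4:**
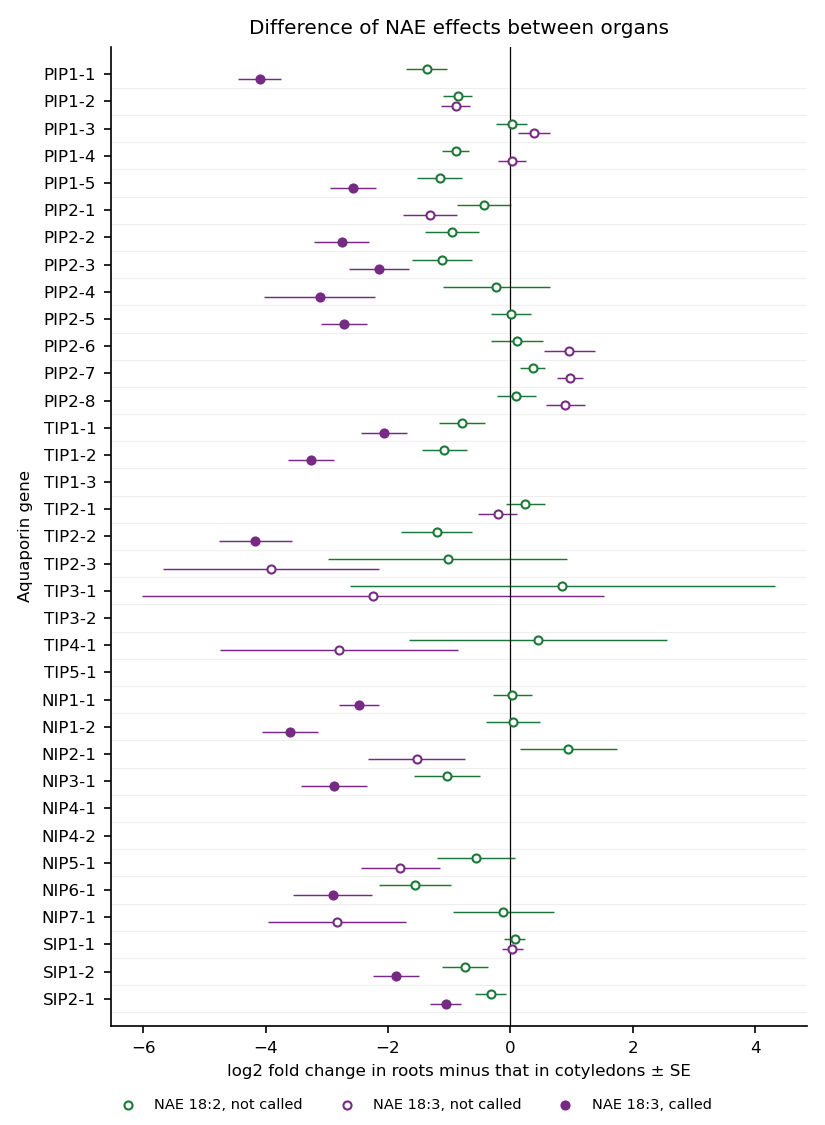
Log2 fold change in roots minus that in cotyledons (± SE) for each tested aquaporin gene, for NAE 18:2 and NAE 18:3, with filled points for calls. For NAE 18:3, 15 members lie below 0 as calls, with TIP2-2 at -4.17 and PIP1-1 at -4.10, and for NAE 18:2 there are 0 calls.

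Compared directly in roots, NAE 18:3 left 14 of 28 members lower than NAE 18:2 and 0 higher, where 15.3% of all genes tested were called lower and 1.91% higher. At an unadjusted p under 0.05, 3 members were higher, and DESeq2 called 0 higher. The median log2 fold change was -1.33 over the members and -0.04 over all genes. PIP2-4 had the largest difference (-3.02 ± 0.33, adjusted p = 0.000253), then TIP2-2 (-2.70 ± 0.35, adjusted p = 0.000534), NIP2-1 (-2.65 ± 0.47, adjusted p = 0.00193) and NIP1-2 (-2.64 ± 0.40, adjusted p = 0.00101). PIP1-1, PIP1-5, PIP2-2, PIP2-5, TIP1-2, TIP2-3, TIP4-1, NIP1-1, NIP3-1 and NIP5-1 were also lower. The TIP2-3 call was lost without NAE 18:2 roots replicate 1 or 3 or any NAE 18:3 root replicate (largest adjusted p = 0.0275), and that of NIP3-1 without NAE 18:3 roots replicate 3 (0.0114). PIP2-3 was not called, at -0.30 ± 0.29 (adjusted p = 0.401).

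In cotyledons the NAEs differed at 1 of 28 members, NIP1-2, with 46.3 ± 9.67 CPM after NAE 18:3 and 21.3 ± 4.77 CPM after NAE 18:2 (log2 fold change 1.09 ± 0.22, adjusted p = 0.0098). All genes tested were called higher in 3.91% and lower in 0.417%. That call was lost in 5 of the 6 fits with 1 library left out, the fit without NAE 18:3 cotyledons replicate 1 being the exception (largest adjusted p = 0.0439).

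Whole seedlings gave fewer calls than roots, and their treated libraries differed in root gene transcripts, whose sum was also lower in dissected treated roots. By gene, the seedling libraries of each NAE lay below all DMSO seedlings for 6 of the 6 root genes. In dissected roots this held for 3 of them after NAE 18:2 and 5 after NAE 18:3. CASP1 was 78.2 to 113 CPM in NAE 18:2-treated roots, overlapping DMSO roots. In NAE 18:2-treated seedlings it was 0.858, 17.8 and 0.353 CPM, against 23.7 to 42.0 CPM in DMSO seedlings. Summed CPM of the 6 root genes was 16.8, 58.7 and 14.6 in NAE 18:2-treated seedlings, 42.1, 11.7 and 15.1 in NAE 18:3-treated seedlings and 208, 198 and 177 in DMSO seedlings. The sums of NAE 18:2 replicates 1 and 3 and of NAE 18:3 replicates 2 and 3 lay within the 10.07 to 20.1 CPM of dissected cotyledons. SHR alone was 8.61 to 13.0 CPM in those seedling libraries, and 14.1 ± 2.03 CPM in DMSO cotyledons. NAE 18:2 seedlings replicates 1 and 3 were also unusually alike, with a chi-square per degree of freedom of 1.87 over genes where the next lowest pair of seedling libraries of a treatment had 15.5. They still differed by more than sampling noise and were kept as separate libraries. Some treated seedling libraries were closer across the NAEs than within them. NAE 18:2 replicate 2 and NAE 18:3 replicate 1 had 19.7. NAE 18:3 replicate 3 had 17.9 and 18.0 with NAE 18:2 replicates 1 and 3. NAE 18:2 replicate 2 had 130 and 123 with NAE 18:2 replicates 1 and 3, and pairs of NAE 18:3 libraries had 74.6 to 232. This spread within the groups limits the comparison of the NAEs in seedlings. TIP4-1, near 0 in cotyledons, followed the same libraries, with 0.933, 23.7 and 0.883 CPM after NAE 18:2, 13.4, 0.911 and 1.13 CPM after NAE 18:3 and 26.99, 26.28 and 19.44 CPM after DMSO. In dissected roots TIP4-1 overlapped DMSO after NAE 18:2, at 58.79 to 87.03 CPM, and was lower after NAE 18:3, at 7.031 to 21.25 CPM. Less root tissue and less root gene RNA per cell cannot be told apart in these libraries, and their part in the seedling results was not tested.

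NAE 18:2 lowered 2 of 29 members in seedlings and NAE 18:3 lowered 3, where 0.206% and 0.631% of all genes tested were called lower. Both raised 0, where 0.674% and 1.28% were called higher. DESeq2 also raised 0, and 2 members after NAE 18:2 and 1 after NAE 18:3 were higher at an unadjusted p under 0.05. PIP1-1 was 86.0 ± 11.6 CPM after NAE 18:2, 86.4 ± 23.0 CPM after NAE 18:3 and 320.0 ± 92.4 CPM after DMSO (log2 fold changes -1.91 ± 0.26 for each, adjusted p = 0.00829 and 0.00645). TIP2-2 was 6.26 ± 2.17, 4.17 ± 2.22 and 64.7 ± 23.9 CPM in the same groups (-3.38 ± 0.45 and -3.97 ± 0.47, adjusted p = 0.00836 and 0.00455). PIP2-3 was called after NAE 18:3, at 13.9 ± 4.46 CPM against 40.8 ± 5.97 CPM after DMSO (-1.58 ± 0.22, adjusted p = 0.00688). The members' median log2 fold changes were -0.63 and -0.67, beside -0.03 over all genes in each case.

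These seedling calls rested on the library set. With NAE 18:2 seedlings replicates 1 and 3 summed as 1 library, or with the replicate number as a block, 0 members were called under either NAE. Leaving out each library in turn gave 0 to 5 members lower after NAE 18:2 and 0 to 8 after NAE 18:3. Those fits called 0 to 372 and 4 to 528 of all genes lower, of at least 21017 tested, against 43 and 132 of 20911 with all libraries. Calls were thus lost over all genes too, and the losses say nothing particular about the family. Only the fit without NAE 18:2 seedlings replicate 2 kept the 2 calls of NAE 18:2, and only that without NAE 18:3 seedlings replicate 1 kept the 3 of NAE 18:3. A fit of only the 6 libraries compared left 0 of the 3 calls of NAE 18:3, where it called 52 of 20459 genes lower. DESeq2 called 8 members lower under each NAE, where it called 457 and 988 of 26236 genes lower. NAE 18:3 and NAE 18:2 seedlings differed at 0 of 29 members and at 0 of all genes tested by edgeR (0% called). An unadjusted p under 0.05 was found for 690 genes, among them 1 member, and DESeq2 called 27 genes and 0 members.

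**Figure D5:**
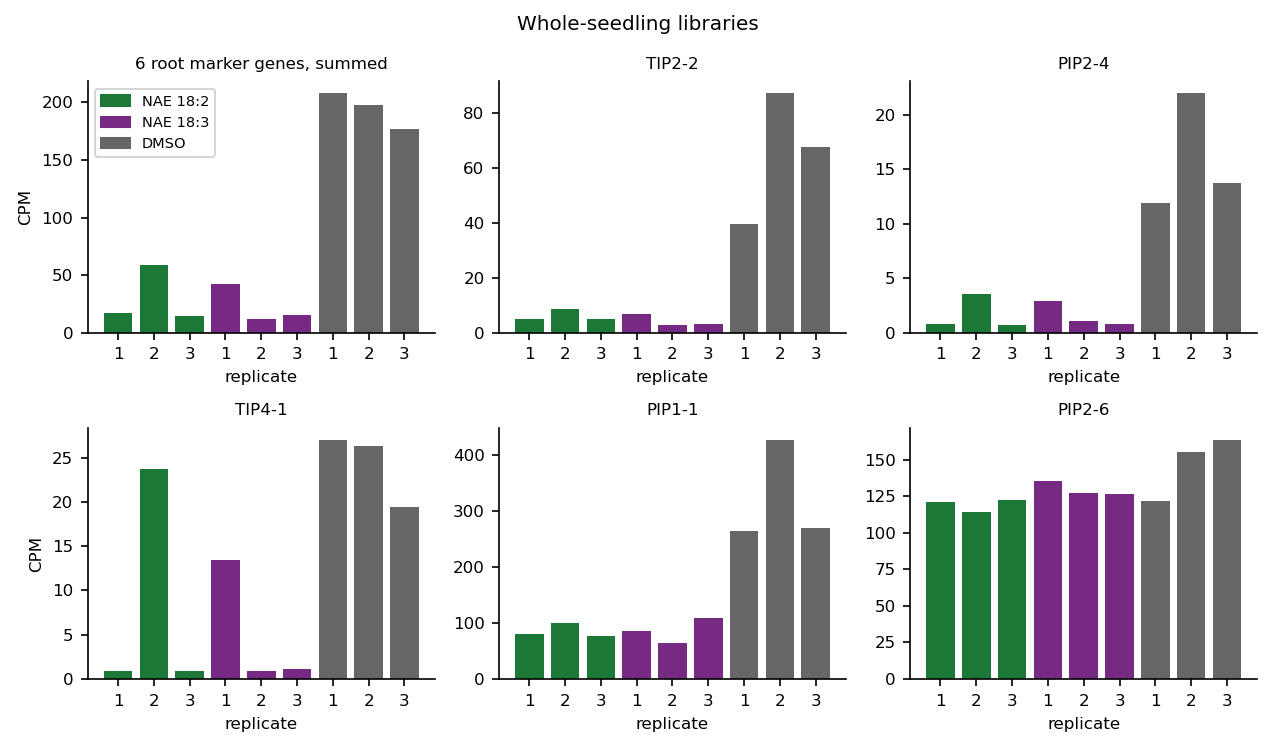
Values in the 9 whole-seedling libraries for aquaporin genes and for the summed root genes, in CPM, with NAE 18:2, NAE 18:3 and DMSO bars from left to right. The root gene sum is 11.7 to 58.7 CPM in treated and 177 to 208 CPM in DMSO seedlings, and TIP4-1 is under 1.2 CPM in 4 of the 6 treated libraries.

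A set of members could not be followed in roots or cotyledons because their counts were too low for the filter. TIP1-3, TIP3-1, TIP3-2, TIP5-1, NIP4-1 and NIP4-2 failed in every organ, NIP7-1 also failed in roots and TIP2-3 in cotyledons. TIP1-3, TIP5-1, NIP4-1 and NIP4-2, known from pollen, had 8, 6, 0 and 10 counts over the 27 libraries together. TIP3-1, the seed storage vacuole channel, had 146 counts in all and up to 40 in a single library. Those 40 counts were in DMSO seedlings replicate 1, which also had 109 CPM of summed seed storage and late embryo genes, against 1.87 to 2.63 CPM in the other DMSO seedlings. The counts did not follow the seed genes throughout, as NAE 18:2 seedlings replicate 2 had 37 counts beside 18.2 CPM of seed genes, and NAE 18:2 cotyledons replicate 3 had 10 counts beside 203 CPM. A fit of all 27 libraries let TIP3-1 through, and it was not called.

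Genes that work with aquaporins were counted from a list of 19 covering trafficking, turnover, phosphorylation, boron export and proton pumping. In roots NAE 18:3 raised 1 and lowered 3 of 19, where 5.94% of all genes tested were called higher and 16.8% lower, and NAE 18:2 raised 1 and lowered 1, where 5.68% and 3.03% were. Counts of this size lie near those shares and say nothing particular about the list. SYP121, a syntaxin that delivers PIPs to the plasma membrane, averaged 105 ± 16.7 CPM after NAE 18:2, 175 ± 20.3 CPM after NAE 18:3 and 38.2 ± 4.70 CPM after DMSO (log2 fold changes 1.42 ± 0.14 and 2.02 ± 0.14, adjusted p = 0.000285 and 1.76e-05), a direction opposite to that of the PIPs called there. BOR2, a boron exporter that works with the boric acid channels, averaged 87.0 ± 14.7, 23.0 ± 7.03 and 227 ± 80.0 CPM in the same groups (-1.42 ± 0.30 and -3.48 ± 0.33, adjusted p = 0.00819 and 6.379e-05). Under NAE 18:3, BOR1, its relative, fell by 2.38 on the log2 scale, and AHA2, the main plasma membrane proton pump, fell by 2.601. In cotyledons edgeR tested 17 of the 19. SYP121 rose there after NAE 18:3 (1.30 ± 0.07, adjusted p = 8.45e-06), where 6.33% of all genes tested were called higher and 2.49% lower. After NAE 18:2 edgeR called 0 of the list, where 0.617% of all genes were called higher and 0.108% lower. The list then had 3 at an unadjusted p under 0.05 and 0 called by DESeq2. That unadjusted limit was passed by 4966 of all 19444 genes tested after NAE 18:2. In seedlings edgeR called 0 of the list under either NAE. It called 0.674% of all genes higher and 0.206% lower after NAE 18:2, and 1.28% and 0.631% after NAE 18:3. At an unadjusted p under 0.05 the list had 10 after NAE 18:2 and 12 after NAE 18:3. Of all 20911 genes tested in seedlings, 6453 and 8565 passed it. DESeq2 called SYP121, BOR1 and BOR2 there after NAE 18:2 and, with CPK7, a calcium-dependent protein kinase, after NAE 18:3. Over all 26236 genes DESeq2 called 1401 higher and 457 lower after NAE 18:2, and 1821 higher and 988 lower after NAE 18:3.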

How the data were processed

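Total RNA was poly(A)-selected, made into stranded TruSeq libraries and read as pairs of 75 bp. The authors trimmed reads with Trimmomatic 0.36, aligned them to TAIR10 with STAR 2.6 and tested genes with DESeq2 1.22.1. The program and annotation that gave counts per gene, and whether strand was used, are not given in the sources used here. The deposited table used here holds the authors' whole-number counts without normalization, and 0 of its columns were left unmatched to a sample. A second deposited table, of counts already divided by library size factors, was not used.

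Each organ had 1 fit of its 9 libraries, made with edgeR 4.0.16 under R 4.3.3 (TMM, filterByExpr, robust quasi-likelihood fit, two-sided test). The DMSO organ contrast and the interactions came from a fit of all 27 libraries. Adjusted p-values are Benjamini-Hochberg over all genes tested. CPM was scaled by TMM over 27 libraries, so the ratio of printed CPM can differ slightly from a fold change of an organ's own fit. RPKM used TAIR10.1 exon lengths, although the authors named TAIR10. Errors are SD over 3 libraries, or SE for fold changes. The counting floor was 3 counts in each library of a group, and no fold change needed a bound. Scripts were tested on simulated data.

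Values per library are given for 14 of the members called against DMSO in roots or cotyledons or in an interaction, or highest under DMSO. These 14 had the largest fold changes over those comparisons, without the contrast of DMSO organs. NIP2;1 was added to these after its values were seen. Members called only in seedlings or between organs are given by group means. The members, the partner list and the marker lists were chosen with earlier results of these data known. Same-numbered libraries were checked for shared deviations from their group means: correlations were 0.108 to 0.337 for NAE 18:2 and DMSO cotyledons and 0.102 to 0.131 for NAE 18:3 and NAE 18:2 cotyledons, which were taken as paired, and at least 1 of the 3 correlations of every other comparison was under 0.1. Alternatives were other scalings (RLE, upper quartile, library totals), no filter, DESeq2 1.42.0, a replicate block, an adjusted p under 0.05 with no fold minimum, fits of only the libraries compared, PIP2;2 and PIP2;3 summed, alike seedling libraries summed, and each library left out in turn. The PIP2;2 and PIP2;3 sum was added after seeing the data.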

Additional observations from a re-analysis of the deposited data

Results flagged for a closer look

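The effect of NAE 18:3 differed between roots and cotyledons by the interaction test for 15 members (edgeR, adjusted p under 0.01, log2 difference over 1 in size). At that adjusted p, 1 further member was lower and 1 was higher, and both missed the fold minimum. The 15 called differences, in log2 units as roots minus cotyledons, were all negative. Among PIPs they were -4.10 for PIP1;1, -2.57 for PIP1;5, -2.76 for PIP2;2, -2.15 for PIP2;3, -3.12 for PIP2;4 and -2.72 for PIP2;5. PIP2;5 is the PIP here that was higher in cotyledons than in roots under DMSO. Among vacuole channels the differences were -2.07 for TIP1;1, -3.26 for TIP1;2 and -4.17 for TIP2;2. The NIPs had -2.47 for NIP1;1, -3.60 for NIP1;2, -2.88 for NIP3;1 and -2.90 for NIP6;1. SIP1;2, which rose in NAE 18:3-treated cotyledons, had -1.87, and SIP2;1 had -1.06, a call lost without DMSO roots replicate 3, NAE 18:3 roots replicate 3 or NAE 18:3 cotyledons replicate 1 (smallest size -0.94). PIP2;4 had few reads in cotyledons, at most 0.756 CPM in a library, and its call was lost without any 1 of the 12 libraries (adjusted p 0.0109 to 0.0766). NIP3;1 was also rare, with 14 to 24 counts in these cotyledon libraries, as was NIP6;1, with 1 to 6 counts in NAE 18:3-treated roots. Both calls were kept under each of 21 alternatives, of which the looser limits (adjusted p under 0.05, no fold minimum) could lose no call. The summed root gene transcripts were also lower in NAE 18:3-treated roots than in DMSO roots, and their part was not tested.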

How the results depend on the processing

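Of 89 calls of a member in a comparison, 63 held under every alternative run and 71 under every alternative other than leaving out a library. Of 1420 recomputed values of called members, 0 changed sign, and 218 of 4173 of uncalled members did. These totals include the alternative with an adjusted p under 0.05 and no fold minimum. It reused the values of the main fit, so it could neither change a sign nor lose a call. With an adjusted p under 0.05 and no fold minimum, NAE 18:3 roots gained 1 member higher, NAE 18:2 cotyledons had 2 higher and 4 lower, NAE 18:3 cotyledons 6 lower, NAE 18:2 seedlings 10 lower, NAE 18:3 seedlings 1 higher and 15 lower, NAE 18:3 against NAE 18:2 had 2 higher in roots and 1 lower in cotyledons, and the organ difference had 4 lower for NAE 18:2 and 2 higher for NAE 18:3. Over all genes these limits gave 5492 of 20138 higher in NAE 18:3 roots. In cotyledons they gave 730 higher and 673 lower of 19444 after NAE 18:2, and 2768 lower after NAE 18:3. In seedlings 521 of 20911 were lower after NAE 18:2, and 2738 were higher and 1910 lower after NAE 18:3. Between the NAEs 4555 of 20138 were higher in roots and 1751 of 19444 lower in cotyledons. The organ difference had 1188 of 21643 lower for NAE 18:2 and 5100 higher for NAE 18:3. DESeq2 called 2 lower in NAE 18:2 cotyledons, 8 lower in seedlings under each NAE and 1 lower for the NAE 18:2 organ difference. Over all genes it called 125 of 25581 lower in NAE 18:2 cotyledons and 461 of 27610 lower for the NAE 18:2 organ difference. In seedlings it called 457 and 988 of 26236 genes lower after NAE 18:2 and NAE 18:3. With the replicate number as a block, 1 member was lower in NAE 18:2 cotyledons, 0 in seedlings under either NAE and 1 for the NAE 18:2 organ difference, and NAE 18:2 roots had 7 lower. Over all genes the block gave 56 of 19444 lower in NAE 18:2 cotyledons and 0 of 20911 in seedlings under either NAE. It gave 173 of 21643 lower for the NAE 18:2 organ difference and 373 of 20138 in NAE 18:2 roots. With NAE 18:2 seedlings replicates 1 and 3 summed, both NAEs had 0 lower in seedlings, where 0 and 16 of all 21198 genes were called lower. With only the 6 libraries compared, NAE 18:3 cotyledons had 1 higher, NAE 18:3 seedlings 0 lower and NAE 18:3 against NAE 18:2 cotyledons 0 higher, a count that was also 0 under upper quartile scaling, library totals and no filter. Over all genes the fits of 6 libraries gave 1247 of 19168 higher, 52 of 20459 lower and 818 of 19152 higher in that order. The NAE 18:2 organ difference had 1 lower under upper quartile scaling and 2 with only the 18 root and cotyledon libraries. Over all genes these gave 352 of 21643 and 475 of 21433 lower. No cause of these shifts was tested.

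Leaving out 1 library at a time gave the following ranges. NAE 18:2 roots had 5 to 7 lower and 0 to 1 higher, NAE 18:3 roots 19 to 21 lower, NAE 18:2 cotyledons 0 to 1 lower and NAE 18:3 cotyledons 0 to 2 higher. Over all genes, at least 19662 tested in each fit, 262 to 801 were lower in NAE 18:2 roots and 2759 to 3256 in NAE 18:3 roots. In cotyledons 0 to 44 were lower after NAE 18:2 and 998 to 1391 higher after NAE 18:3. Seedlings had 0 to 5 lower after NAE 18:2 and 0 to 8 after NAE 18:3, where 0 to 372 and 4 to 528 of all genes were called lower. NAE 18:3 against NAE 18:2 had 12 to 15 lower in roots and 0 to 1 higher in cotyledons. DMSO roots against cotyledons had 11 to 13 higher and 6 to 8 lower. The organ difference had 0 to 2 lower for NAE 18:2, and 13 to 15 lower and 0 to 2 higher for NAE 18:3. Upper quartile scaling moved the all-gene median by -0.12 in NAE 18:2 roots, -0.11 in seedlings after NAE 18:2, -0.15 in seedlings after NAE 18:3, and 0.29 between DMSO organs. Members under about 10 counts per library, such as NIP6;1 in treated roots, are limited by depth.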
